A study of Mus musculus with 27 samples.

Results

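Constitutive active distal sites were defined here as stretches of mouse chromatin that carried the acetylation mark H3K27ac in hematopoietic progenitor cells (HPC) both before birth and in the adult, and the priming mark H3K4me1 in fetal and adult HPC and hematopoietic stem cells (HSC). Members were chosen by the measured peak calls of the 6 lists: a member was a peak of the adult HPC H3K27ac list that was under 4 kb wide and whose midpoint lay more than 5 kb from both ends of every protein-coding gene of mm10. It also had to overlap, by 1 bp or more, a fetal HPC H3K27ac peak and a peak of each of the 4 H3K4me1 lists. Of 63108 adult HPC H3K27ac peaks, 61448 were under 4 kb wide, 42521 of those were distal, 27868 of those had H3K4me1 in all 4 lists, and 12658 of those met the fetal acetylation condition and were members. That was 29.8% of the distal adult peaks and 45.4% of the distal adult peaks with H3K4me1 in all 4 lists. From the fetal side, 44.6% of the distal fetal peaks (15450 of 34649) met the same conditions. These shares are fixed by the rule and are given as a description.

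The fetal mice were embryos at stage E16.5 (days of gestation) and the adults were 8 weeks old, and the strain is not given in the sources used here. HSC and HPC were sorted and fixed, and chromatin bound by an antibody was tagged with the Tn5 transposase (ChIPmentation), with the sort markers not given in the sources used here. H3K4me1 was measured in HSC (3 fetal and 4 adult libraries) and HPC (3 and 3), and H3K27ac in 3 fetal and 3 adult HPC libraries. No group was said to carry an allele or to have had a treatment. A second K27 set of 2 fetal and 3 adult HPC libraries was called H3K27me3 by its titles but H3K27ac by its characteristics. With 3 inputs the series held 27 libraries. The libraries of a group were pooled into 1 peak list, so no spread between replicates could be measured, no test across samples was possible, and the read depth behind each peak is unknown. Acetylation was not measured in HSC, so a member is constitutive between ages in HPC, and its activity in HSC is not known from these lists.

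Enhancers are stretches of DNA that raise transcription of a gene from a distance. H3K4me1 marks enhancers that are open to use, and H3K27ac, which is also found at active promoters, is added where an enhancer is in use. In blood progenitors, enhancers are bound by transcription factors of the RUNX, GATA, ETS and basic helix-loop-helix families, and the genes of those factors are themselves under the control of several distant enhancers.

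The members were only in part free of promoters. The rule kept clear of the outer ends of protein-coding genes, and it did not consider internal coding starts or the starts of long noncoding RNA (lncRNA) genes. A RefSeq transcription start lay inside 762 of the 12658 sites, which is 6.02% (95% Wilson interval 5.62 to 6.45), against 2.91% of all distal adult sites. Of these sites, 379 held a start of a protein-coding gene, 416 a lncRNA start, and 33 both. Counting a start within 1 kb as well gave 986 sites and left 11672 with no listed start nearby. The members are therefore called constitutive sites below, and results that the start-holding sites touch are given with and without them. All intervals here cover counting error only.

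The starts shown here are a selection from sites at well-known blood regulators, with the start in the strongest site that holds a coding one. Starts in sites at Stat5b, Satb1, Stat4 and Hmga2, among others, are not shown. Each sequence is the 250 bases just before the start, read 5′ to 3′ on the gene's strand, from RefSeq on GRCm38.p6. Capitals mark GATA words (AGATAA or TGATAA), RUNX words (TGTGGT or TGCGGT), ETS words (CGGAAG or AGGAAG) and E-box words (CAGCTG or CAGATG) on either strand. Gm38856 lies at Gata2, Gm33619 at Myb, Gm13133 at Prdm16 and LOC118027456 at Etv6; these 4 are lncRNA genes, while Nfyc and Runx1 are protein-coding.
Nfyc, chr4:120825210-120825459, minus strand: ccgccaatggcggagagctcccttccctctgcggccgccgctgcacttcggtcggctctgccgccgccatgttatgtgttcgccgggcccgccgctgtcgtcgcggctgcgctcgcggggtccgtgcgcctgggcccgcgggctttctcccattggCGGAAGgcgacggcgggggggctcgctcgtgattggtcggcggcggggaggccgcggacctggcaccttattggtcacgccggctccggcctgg
Runx1, chr16:92697330-92697579, minus strand: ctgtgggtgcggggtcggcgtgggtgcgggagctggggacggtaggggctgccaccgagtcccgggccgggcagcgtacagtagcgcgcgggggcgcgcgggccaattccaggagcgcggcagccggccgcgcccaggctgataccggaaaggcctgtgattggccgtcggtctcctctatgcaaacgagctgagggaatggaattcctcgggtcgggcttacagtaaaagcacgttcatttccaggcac
Gm38856, chr6:88152119-88152368, plus strand: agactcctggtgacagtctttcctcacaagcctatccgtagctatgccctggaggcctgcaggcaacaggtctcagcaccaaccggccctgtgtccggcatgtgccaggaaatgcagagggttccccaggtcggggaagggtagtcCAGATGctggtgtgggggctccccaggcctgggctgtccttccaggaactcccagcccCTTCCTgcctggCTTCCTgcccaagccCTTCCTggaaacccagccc
Gm33619, chr10:21186694-21186943, plus strand: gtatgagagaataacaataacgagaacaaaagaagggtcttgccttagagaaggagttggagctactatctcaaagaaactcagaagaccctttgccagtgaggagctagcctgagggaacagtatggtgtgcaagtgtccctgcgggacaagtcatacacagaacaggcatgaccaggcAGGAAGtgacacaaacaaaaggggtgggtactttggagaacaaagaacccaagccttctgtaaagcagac
Gm13133, chr4:154550032-154550281, plus strand: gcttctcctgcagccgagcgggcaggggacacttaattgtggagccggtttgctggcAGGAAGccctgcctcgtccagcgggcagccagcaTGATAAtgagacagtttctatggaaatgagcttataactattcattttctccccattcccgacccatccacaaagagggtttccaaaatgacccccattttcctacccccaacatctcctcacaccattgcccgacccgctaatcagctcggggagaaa
LOC118027456, chr6:134243720-134243969, minus strand: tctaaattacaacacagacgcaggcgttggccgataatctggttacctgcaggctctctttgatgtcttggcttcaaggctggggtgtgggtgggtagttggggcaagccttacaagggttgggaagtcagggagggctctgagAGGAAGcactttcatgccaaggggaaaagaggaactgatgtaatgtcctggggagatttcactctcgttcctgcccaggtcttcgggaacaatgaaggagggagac

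These windows differed in composition. The Nfyc window had 74.4% G+C and 37 CG dinucleotides, with 1 ETS word. The Runx1 window had 67.6% G+C and 27 CG dinucleotides, and none of the 4 kinds of word occurred in it. The lncRNA window at Gata2 had 63.2% G+C, 4 CG dinucleotides, 3 ETS words and 1 E-box word. The window at Myb had 47.2% G+C, 2 CG dinucleotides and 1 ETS word. The window at Prdm16 held 1 GATA word and 1 ETS word, and that at Etv6 held 1 ETS word. Among these 6, the coding starts were thus the ones rich in CG dinucleotides.

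Over all starts inside constitutive sites, ETS words were held by a larger share than among starts in general, as were CTCF and IRF words among lncRNA starts. The CTCF and IRF shares were close to those of lncRNA starts inside other distal adult sites, given below. Of 439 coding windows of 300 bases (250 before and 50 after the start), 55.8% (51.1 to 60.4) held an ETS word, against 48.5% of all coding windows in the table. Of 481 lncRNA windows, 57.4% (52.9 to 61.7) held one, against 42.7% of all lncRNA windows. The longer ETS word bound by PU.1-type factors, GAGGAAG, which contains AGGAAG, was in 22.0% (18.6 to 26.0) of the lncRNA windows, against 13.7% of all. It was in 14.6% of the coding windows, against 13.6% of all. GATA words were in 10.9% (8.35 to 14.2) of the coding windows, against 15.9% of all, and in 19.5% (16.2 to 23.3) of the lncRNA windows, against 23.7%. RUNX words were in 20.5% (17.0 to 24.5) of the coding and 24.9% (21.3 to 29.003) of the lncRNA windows, with all windows at 21.6% and 24%, inside the intervals. CTCF words (AGGTGGC or AGGGGGC) were in 16.4% (13.4 to 19.999) of the lncRNA windows, against 11.9% of all, and in 20.5% (17.0 to 24.5) of the coding windows, against 18.2%. IRF words (GAAACTG or GAAAGTG) were in 14.8% (11.9 to 18.2) of the lncRNA windows, against 11.5% of all, and in 11.6% (8.95 to 14.95) of the coding windows, against 9.84%. For the E-box words and for CEBP (TTGCAAT or TTGCGCA), AP-1 (TGANTCA) and MEIS (TGACAG) words, the interval in constitutive sites took in the share of all windows in both kinds. Starts inside the other distal adult sites gave a mixed picture. Their lncRNA windows held an ETS word in 53.3% (48.1 to 58.5) and the longer word in 21.9% of cases, with intervals that overlap those of constitutive sites. Their coding windows held an ETS word in 46.4% (39.7 to 53.2), a lower value whose interval also overlaps. CTCF and IRF words were in 16.7% and 13.5% of their lncRNA windows, with intervals that overlap those of constitutive sites. GATA words were in 9.66% of their coding and 16.1% of their lncRNA windows, again with overlapping intervals. Median G+C was 51.7% in the lncRNA windows of constitutive sites and 48.3% in all lncRNA windows. In coding windows it was 59% in constitutive sites, 59% in other distal adult sites and 56.3% in all. The median number of CG dinucleotides in these coding windows was 17, 13 and 13. The part of composition in the word shares was not tested.

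Of 1005 microRNA hairpins in the RefSeq table, 6 lay wholly inside constitutive sites, a count given as a description and without a background share. Their 9 mature sequences had 9 different seeds. Of these, both arms of let-7i, a member of the let-7 family that is known to rise late in development, are shown with 1 arm each from the sites at Irf1 and Pde4d. The seed, bases 2 to 8, is in capitals.
mmu-let-7i-5p, chr10:122985698-122985719, minus strand: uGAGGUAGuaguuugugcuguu
mmu-let-7i-3p, chr10:122985642-122985663, minus strand: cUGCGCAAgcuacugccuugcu
mmu-miR-7671-5p, chr11:53763632-53763654, minus strand: aGGCUCCGcucuggcuagcuucc
mmu-miR-1904, chr13:109903819-109903840, plus strand: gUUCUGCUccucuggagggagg

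The let-7i site, chr10:122983760-122987320, lay 6520 bp from the nearest coding gene, Mon2. Its fold of ChIP signal over background, a value of the authors for each peak, was 27.8 in adult and 14.9 in fetal HPC H3K27ac, and these folds belong to separate lists and are not compared. A percentile here is the share of a list's peaks with a lower −log10 p. The let-7i site stood at percentiles 98.6 in adult and 97.1 in fetal H3K27ac, and at 97.3, 89.5, 93.5 and 89.5 in H3K4me1 of HSC (fetal, then adult) and HPC (fetal, then adult), an order kept below. It was thus in the top 20% of all 6 lists. The sites with miR-7671 (6256 bp from Irf1, a regulator of interferon responses) and with miR-1904 (inside Pde4d, a phosphodiesterase gene) stood at adult acetylation percentiles 94.4 and 95.6. These miRNA sites were chosen after their values were seen.

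Constitutive sites were the strong and wide part of distal acetylation. Their median width was 1310 bp and their median adult fold 4.26, against 556 bp and 2.91 for the 15210 distal adult sites that had H3K4me1 in all 4 lists and no fetal acetylation peak, called adult-only sites below. The 4273 fetal-only sites, with H3K4me1 in all 4 lists and no adult acetylation peak, had a median width of 395 bp in the fetal list. Together the constitutive sites covered 18.6 Mb. Width and strength raise the chance of an overlap with another list, so these values describe what the rule selected.

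The share of H3K4me1-marked sites with a fetal acetylation peak was larger the stronger the sites. Distal adult sites were ranked by adult −log10 p and split into 10 equal groups. In the strongest group 93.6% (92.8 to 94.3) of the sites with H3K4me1 in all 4 lists were constitutive, in the next 72.9%, and in the third 50.9%. The weakest group had 15.7% (14.0 to 17.5). The order was not strict, since group 6 had 24.96% and group 7 25.5%, within each other's intervals. A strong adult site without a fetal peak was uncommon: 252 of 3941 in the strongest group.

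**Figure D1:**
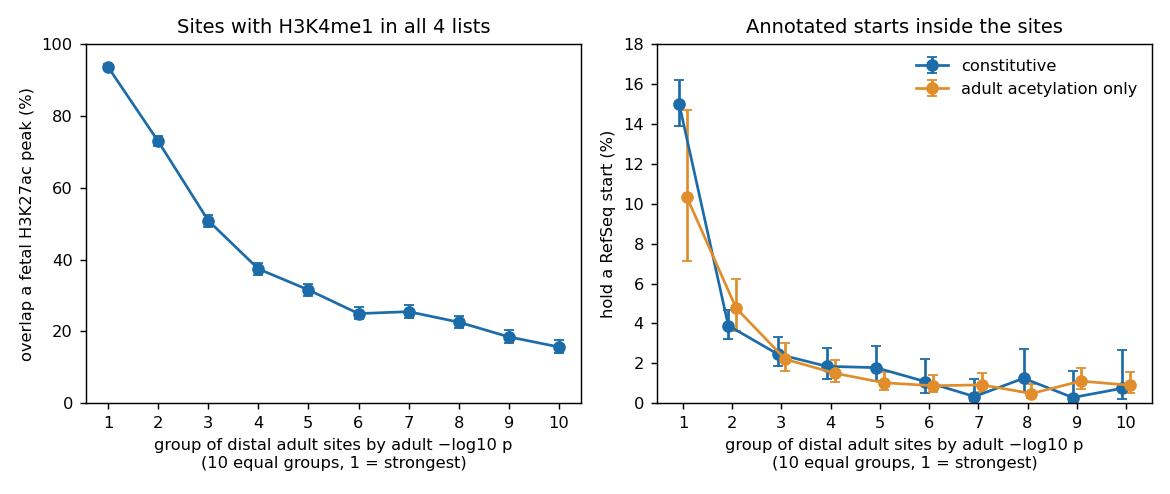
Left, percent of distal adult HPC H3K27ac sites with H3K4me1 in all 4 lists that overlap a fetal H3K27ac peak, by group of adult −log10 p; right, percent of constitutive and of adult-only sites that hold a RefSeq start; bars are 95% Wilson intervals. The share with fetal acetylation falls from 93.6% to 15.7%, and the share with a start from 15.02% to 0.749% in constitutive sites, with overlapping intervals for both classes in the 2 strongest groups.

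Annotated starts were concentrated among the strongest members. Of the strongest 100 constitutive sites by adult −log10 p, 62.0% (52.2 to 70.9) held a start, and of the strongest 1000, 28.3% did. Ranked by the fetal peak in place of the adult one, 35.0% (26.4 to 44.7) of the strongest 100 held a start. Adult-only sites held a start in 1.54% of cases, 4.48 percentage points fewer than constitutive sites (Newcombe interval 4.03 to 4.95), and fetal-only sites in 0.374%. Strength moved with this difference. Within the strongest group a start lay in 15.02% (13.9 to 16.2) of constitutive and 10.3% (7.14 to 14.7) of adult-only sites, and within the next group in 3.89% (3.24 to 4.68) and 4.76% (3.62 to 6.24). Counting only starts within 250 bp of the acetylation summit, so that the same width was searched at each site, gave 3.06% (2.77 to 3.37) of constitutive and 0.973% (0.829 to 1.14) of adult-only sites. The classes still differed in strength there, with median adult percentiles of 68.0 and 38.8, and this count was not split by strength.

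The 5 strongest members by adult −log10 p show this mix. The first was chr17:30574460-30578041 inside Btbd9, with folds of 57.4 in adult and 29.5 in fetal H3K27ac, and no listed start. The second, chr4:120824466-120826848, lay in Nfyc, which encodes a subunit of the CCAAT-binding factor NF-Y, 5.92 kb from the gene's outer 5′ end, and held the Nfyc start printed above. Its folds were 49.5 in adult and 23.5 in fetal H3K27ac. The third, chr18:80468344-80470980 in Ctdp1, had an adult fold of 47.8 and held no listed start. The fourth, chr3:88176744-88178805, lay 5684 bp from Mef2d and held the start of the lncRNA gene 1700113A16Rik, with folds of 45.8 and 33.0. The fifth, chr4:40701643-40704405 in Aptx, a DNA repair gene, held an Aptx start and had an adult fold of 45.3. Starts thus lay in 3 of these 5 sites, 2 of them starts of the coding gene around the site.

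H3K4me1 rank varied among those same sites. The Mef2d site stood at percentile 99.9 in both acetylation lists and at 70.2, 89.5, 62.3 and 64.6 in H3K4me1. The Aptx site stood at 99.9 and 99.7 in adult and fetal acetylation and between 77.1 and 87.0 in the 4 H3K4me1 lists. The Btbd9 site, with no listed start, stood at 97.2, 77.2, 96.2 and 90.8 in the same lists. The Nfyc site, with a start, stood at 96.1, 89.5, 89.0 and 84.4, and the Ctdp1 site, with no listed start, at 68.2, 88.6, 82.7 and 83.9. H3K4me1 rank thus did not separate the sites with and without a start among these 5.

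The 5 sites with the highest product of percentiles over the 6 lists lay in other genes. They were at Smad3 (chr9:63736686-63739672), a mediator of TGF-beta signals, Dido1 (chr2:180700353-180703542), Stat4 (chr1:52007364-52010408), a cytokine signal transducer, Arpc2 (chr1:74247107-74250765), a subunit of the actin-nucleating Arp2/3 complex, and Ptpn18 (chr1:34463039-34466453), a protein tyrosine phosphatase. The Smad3 site stood at percentile 99.0 in adult and 96.1 in fetal acetylation and between 99.2 and 99.9 in the 4 H3K4me1 lists, with adult and fetal folds of 30.6 and 13.2. The Ptpn18 site stood at 95.4 and 96.6 in acetylation and between 99.5 and 99.8 in H3K4me1. A start lay in the Dido1 and Stat4 sites and in none of the other 3.

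Percentiles describe a site's place within 1 list, and they are not compared in size between marks: the H3K4me1 lists held 126502 to 231188 peaks and the acetylation lists 50858 and 63108, and the rule chose the sites by overlap with these lists. The median percentile was 68.0 in adult and 65.7 in fetal acetylation, and 92.2, 88.6, 93.3 and 89.7 in H3K4me1 of fetal HSC, of adult HSC, of fetal HPC and of adult HPC. In the top 20% of all 4 H3K4me1 lists stood 6655 sites (52.6%), in the top 20% of both acetylation lists 1830 (14.5%), and in the top 20% of all 6 lists 1046 (8.26%). Few members were far apart in rank between ages, but the rule had already left out sites with an acetylation peak at 1 age only. In the adult top 20% and the lower fetal 50% of acetylation there were 170 sites (1.34%), and the reverse held for 205 (1.62%).

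Ranks were most alike between cell types of one age. Over the 12658 sites, Spearman's rho was 0.78 between fetal HSC and fetal HPC H3K4me1 and 0.71 between adult HSC and adult HPC. Between ages it was 0.55 for HPC H3K4me1, 0.46 for HSC H3K4me1 and 0.54 for HPC acetylation (0.51 without sites that have a start within 1 kb). Between acetylation and H3K4me1 it was between −0.11 and 0.14. These values describe sites that share their lists, and 1 broad H3K4me1 peak can span several sites: 14.9% of the sites shared their fetal acetylation peak with another site, and 32.6% their adult HPC H3K4me1 peak, with up to 11 sites on 1 peak.

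**Figure D2:**
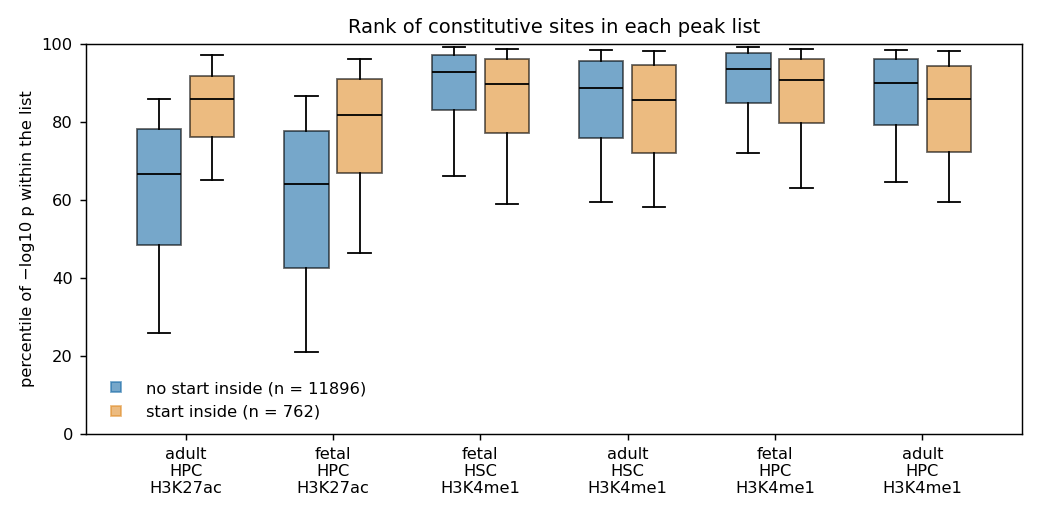
Percentile of −log10 p within each of the 6 peak lists for constitutive sites without and with a RefSeq start inside; boxes span the quartiles with the median, whiskers the 10th to 90th percentiles of sites. Start-holding sites rank higher in both acetylation lists (medians 85.8 and 81.7) and have slightly lower medians in the 4 H3K4me1 lists.

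Sites with a start differed from the rest in shape as well as rank. Their median adult percentile was 85.8 against 66.7 for sites without one, and their median width 2041 bp against 1251 bp. In adult HPC H3K4me1 the medians were 85.9 and 89.9. The H3K4me1 peaks were split more often around a start: 62.7% of start-holding sites overlapped more than 1 fetal HSC H3K4me1 peak, against 29.6% of the others. The distance from the acetylation summit to the summit of the overlapping adult HPC H3K4me1 peak was 863.5 bp (median) with a start and 538 bp without. In fetal HPC it was 1036.5 and 676 bp. H3K4me1 thus stood farther to the side of the acetylation summit at start-holding sites in both of these lists. Their greater width moves with these values, and its part was not tested.

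The rule required the adult and fetal acetylation peaks to overlap, which limits how far apart their summits can lie. The median distance between the adult and fetal summits was 217 bp, 55.4% of sites had them within 250 bp, and 654 sites (5.17%) had them more than 1 kb apart. A second fetal acetylation peak lay over 2341 sites (18.5% had more than 1 fetal peak). The overlaps were mostly broad, with a median of 613 bp for the smallest overlap with any of the other 5 lists, and 272 sites (2.15%) owed their membership to an overlap of under 50 bp. At the edges of the rule, the 69 sites less than 100 bp under the width limit had a median adult fold of 9.22, and the 54 peaks over it by less than 100 bp that met every other condition 7.94. The 254 sites within 500 bp of the distance limit had a median fold of 4.82, and the 259 peaks within 500 bp of it on the other side 4.89. The values near both limits were thus close, while peaks left out by either limit were stronger as a whole. The 937 peaks left out for width alone had a median fold of 11.3, and the 9646 left out for distance alone 10.4.

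Constitutive sites lay inside coding genes about as often as adult-only sites. The share inside a protein-coding gene was 62.2% (61.4 to 63.0), against 62.3% of adult-only sites, a difference of −0.08 percentage points (−1.22 to 1.07). Fetal-only sites lay inside a gene more often, at 71.1%, and the other distal adult sites less often, at 55.6%. The median distance from a constitutive site to the nearest gene end was 28602 bp, and 1861 sites lay more than 100 kb from every gene end. No coding gene lay within 100 kb of 977 sites (7.72%). Exons and introns could not be told apart in the gene table used here.

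Peaks of the second K27 set, which the rule did not use, rarely overlapped distal acetylated sites of any class. Of the 12658 sites, 5 (0.0395%) overlapped a fetal peak of this set and 2 (0.0158%) an adult one. Of all distal adult sites, which include the members, 0.0941% and 0.0188% did, with overlapping intervals. The 5 lay at Usp44, Map1b, Nek10, Pura and Apbb2 and the 2 at Tbl1x and Radx, named after their values were seen. For fetal peaks the difference was −0.079 percentage points (−0.151 to −0.010) from adult-only sites. It was −0.077 (−0.150 to −0.008) from the other distal adult sites, and its interval against fetal-only sites was −0.133 to 0.056. For adult peaks the interval was −0.034 to 0.046 against adult-only sites and −0.258 to −0.022 against fetal-only sites. Within 5 kb, a fetal peak of the set lay at 1.29% of constitutive and 2.10% of adult-only sites, a difference of −0.81 percentage points (−1.11 to −0.51). Fetal-only sites had one in 0.725% of cases, fewer than constitutive sites by 0.56 points (0.21 to 0.86). Among constitutive sites it was 3.15% of those with a start and 1.17% of those without. An adult peak lay within 5 kb of 0.561% and 0.533%, with a difference whose interval was −0.14 to 0.21. Which mark this set measured cannot be told from its labels.

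The sites were spread over many genes, with a few genes holding large numbers. Each site was assigned to the nearest protein-coding gene within 100 kb, which does not show that it acts on that gene. Of 21883 coding genes, 4521 (20.7%) had 1 or more sites and 140 had 10 or more. Those 140 genes held 2046 sites and were long, with a median length of 204.8 kb against 17.2 kb for all coding genes. The share of genes with a site rose with gene length, from 5.38% of genes under 10 kb and 15% of those of 10 to 30 kb to 54.4% of genes of 100 kb or more.

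Etv6, an ETS-family repressor needed by adult HSC, had the most, with 50 constitutive sites among its 112 distal adult sites. Foxp1, a forkhead transcription factor, had 44 of 93, and Arid1b, a subunit of the SWI/SNF chromatin remodelling complex, 43 of 103. Pde4d had 33 of 52, and Sgms1, a sphingomyelin synthase, 29 of 52. Bcl11a, a zinc-finger factor that represses fetal globin and is needed for lymphoid development, had 29 of 76, with 6 of the 29 inside the gene. Zfp608 had 27 of 42, Pik3r1, the regulatory subunit of PI3-kinase, 26 of 37, Rere 24 of 40 and Pde4b, another phosphodiesterase, 24 of 41. The share of distal adult sites that were constitutive thus ran from 38.2% at Bcl11a to 70.3% at Pik3r1 among these 10 genes, all chosen for their numbers of sites, and all above the 29.8% over the genome.

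**Figure D3:**
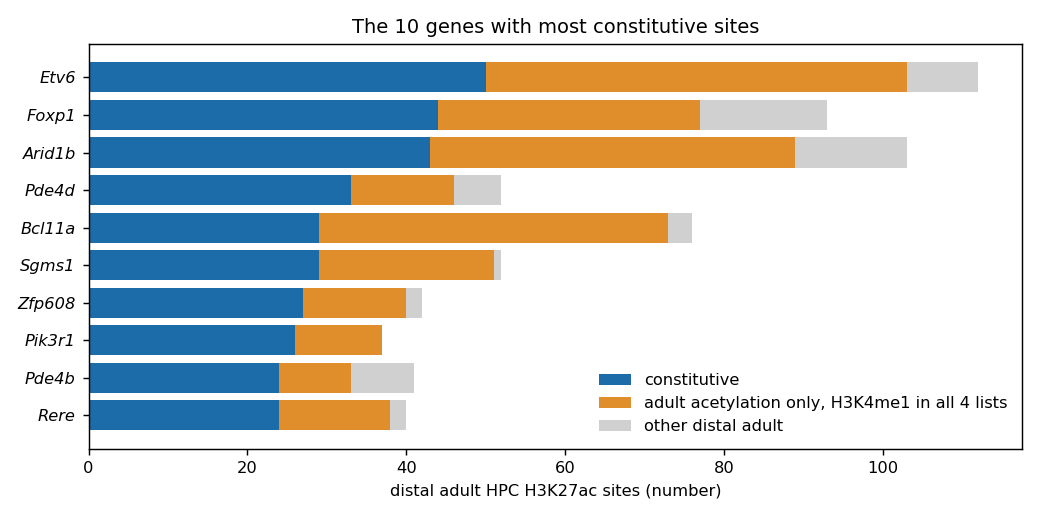
Number of distal adult HPC H3K27ac sites at the 10 genes with most constitutive sites, split into constitutive, adult-only and other sites. Etv6 has 50 constitutive sites among 112, and Pik3r1 26 among 37.

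The strength of the strongest constitutive site varied among these 10 genes. The highest adult fold at a constitutive site of Etv6 or of Bcl11a was 6.60, and at Foxp1 it was 10.0, while at Sgms1 it was 20.8 and at Pik3r1 20.4. When sites no more than 10 kb apart were joined, the 12658 sites formed 8283 clusters, of which 5790 were single sites. Clusters of 3 or more sites numbered 921 and held 3724 sites (29.4%). The largest had 21 sites each. One, chr11:24200098-24257447, spanned 57.4 kb, with its midpoint 55215 bp from the Bcl11a gene body, and the other, chr6:134191564-134254431, spanned 62.9 kb inside Etv6. A second cluster inside Etv6 held 18 sites, and 1 in Rreb1, a zinc-finger factor acting downstream of RAS, held 13. Clusters of 12 lay in Cux1, Fam107b and Zfp608.

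Most genes of blood stem and progenitor transcription factors had constitutive sites. Of the 30 in this list, 24 (80%, 62.7 to 90.5) had 1 or more sites, against 20.7% of all coding genes, and 23 still did with sites near listed starts left out. Their median length was 55.2 kb, and of all coding genes of 30 to 100 kb 35.5% had a site. Besides Etv6, Bcl11a and Runx1 in this list, Meis1, a homeobox factor of stem cells, had 19 of 38 distal adult sites constitutive, and Mecom, which encodes EVI1, 18 of 30. Those without a site included Lyl1, Spi1 and Hoxa9. The list was chosen with earlier results of these data known, so its count is a description.

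HSC identity and quiescence genes had a site in 11 of 20 cases (55.0%, 34.2 to 74.2), with Mecom, Meis1 and Angpt1, a ligand of the receptor Tie2, which had 12 of 31 distal adult sites constitutive. Their median length was 44.2 kb, and the 35.5% of coding genes of 30 to 100 kb with a site lies inside that interval. Cytokine receptors and signalling genes had one in 15 of 27 (55.6%), led by the stem cell factor receptor gene Kit with 14 of 42, Ifngr1 with 7 of 18 and Stat5b with 6 of 14. Lymphoid priming genes had one in 12 of 20 (60%), with Rora at 18 of 71 and Bach2 at 16 of 46. Median lengths were 25.6 kb in the cytokine and 57.8 kb in the lymphoid list. Immediate early and AP-1 genes had one in 12 of 19 (63.2%, 41.0 to 80.9) although their median length was 3.385 kb. Fos had 9 of 22 distal adult sites constitutive, Ier5 6 of 18 and Klf6 5 of 6.

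Genes of differentiated blood lineages had sites in smaller shares of each list, with intervals that overlap those of most lists above. Myeloid genes had one in 8 of 20 cases (40.0%, 21.9 to 61.3), with Ly86 at 14 of 30, Itgam at 5 of 8 and Irf8 at 3 of 26. Erythroid and megakaryocyte genes had one in 10 of 25, with Bcl11a, Fli1 and Car2, a carbonic anhydrase of red cells, at 7 of 11. The lists share genes, and Bcl11a and Fli1 are also in the list of stem and progenitor factors. Gata1, Klf1, Epor and the listed globin genes had no distal adult acetylated site, and are named after their values were seen. Cell cycle genes had one in 8 of 20, with Cdk6 at 8 of 41, Ccnd3 at 5 of 23 and Ccnd2 at 4 of 16. Interferon and antigen presentation genes had one in 6 of 29 (20.7%, 9.85 to 38.4), the same share as all coding genes, with Irf2 at 18 of 36 and Ifnar1 and Irf1 at 4 each. Median lengths in the myeloid, cell cycle and interferon lists were 9.23, 9.82 and 8.36 kb. Of all coding genes under 10 kb, 5.38% had a site, a share below the intervals of these lists and also below that of the housekeeping list given below. A median does not match a list gene by gene. Genes with sites here included long ones, such as Cdk6 (190.0 kb), Irf2 (107.7 kb) and Ly86 (73.7 kb). The erythroid and megakaryocyte list had a median length of 16.6 kb, and 15% of genes of 10 to 30 kb had a site. Among fetal stem cell programme genes, 4 of 12 had a site, and Hmga2, a chromatin protein known from fetal HSC, had 8 of 15, with Igf2bp2 and Igf2bp3 at 2 each. Lin28b, Igf2bp1, Gpc3 and Igf2 had no distal adult acetylated site, and are named after their values were seen.

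Lists chosen as contrasts varied. Silent developmental regulators had a site in 3 of 35 cases (8.57%, 2.96 to 22.4), at Nkx2-1, Tbx3 and Hand1. Housekeeping genes had one in 5 of 20 (25%, 11.2 to 46.9), with Ywhaz at 8 of 30 and Actb and Rab7 at 2 each. Median lengths were 8.04 kb in the silent and 5.33 kb in the housekeeping list, and 5.38% of coding genes under 10 kb had a site. That share lies inside the interval of the silent list and below that of the housekeeping list. Of marker genes of other cell types, hepatocytes had 1 of 12 (Hnf4a), B cells 1 of 10 (Ebf1), stromal cells 1 of 10 (Pdgfra), T and NK cells 3 of 12 (Klrb1c, Lck and Gata3; 1 of 12 with sites within 1 kb of a start left out) and macrophages 3 of 10 (Adgre1, Mrc1 and Spic). Endothelial markers had 5 of 11 (45.5%, 21.3 to 72.0), with Pecam1 at 4 of 18, Kdr at 4 of 11 and Flt1 at 2 of 5. Their median length was 42.9 kb, and the 35.5% of coding genes of 30 to 100 kb with a site lies inside that interval. The part that other cells in the sort took in these sites was not tested.

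**Figure D4:**
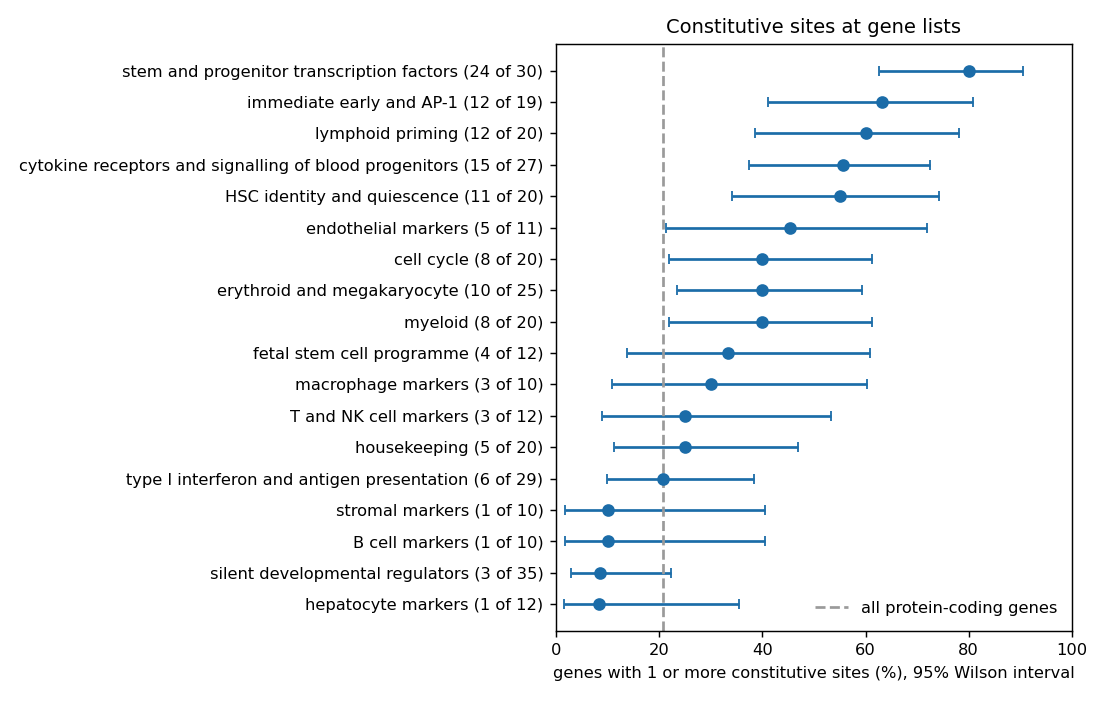
Percent of the genes of each list with 1 or more constitutive sites, with 95% Wilson intervals and, dashed, the 20.7% of all protein-coding genes, not matched for gene length. Stem and progenitor transcription factors stand highest at 24 of 30 and hepatocyte markers lowest at 1 of 12.

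Runx1, whose protein is needed for blood stem cells to form, had 78 adult acetylation peaks, of which 74 were distal and under 4 kb wide and 23 constitutive. A further 39 distal sites had no fetal peak and 12 lacked H3K4me1 in 1 or more lists. The gene spans chr16:92601466-92826074 on the minus strand, and 16 of the 23 sites lay inside it and 7 upstream. The strongest, chr16:92714542-92717088, lay 110.3 kb into the gene, with folds of 9.79 in adult and 8.20 in fetal acetylation. It stood at percentiles 87.5 and 89.3 in these lists and at 94.1, 90.1, 96.2 and 94.98 in H3K4me1. The next, chr16:92619861-92622524, 204.9 kb into the gene, stood at percentile 86.9 in adult acetylation and 53.1 in fetal acetylation. The third, chr16:92882973-92885550, lay 58.2 kb upstream and stood at 86.6 and 85.1. The site with the internal Runx1 start printed above, chr16:92696597-92698836, lay 128.4 kb into the gene and stood at 79.8 in adult and 28.9 in fetal acetylation. Among the sites in the first 50 kb of the gene, those at 39.5 kb and 43.0 kb shared H3K4me1 peaks at percentiles of 99.4 to 99.9 in all 4 lists, with adult acetylation at 79.3 and 65.9. The acetylation ranks of the Runx1 sites thus varied; apart from the strongest, they were chosen after their values were seen.

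**Figure D5:**
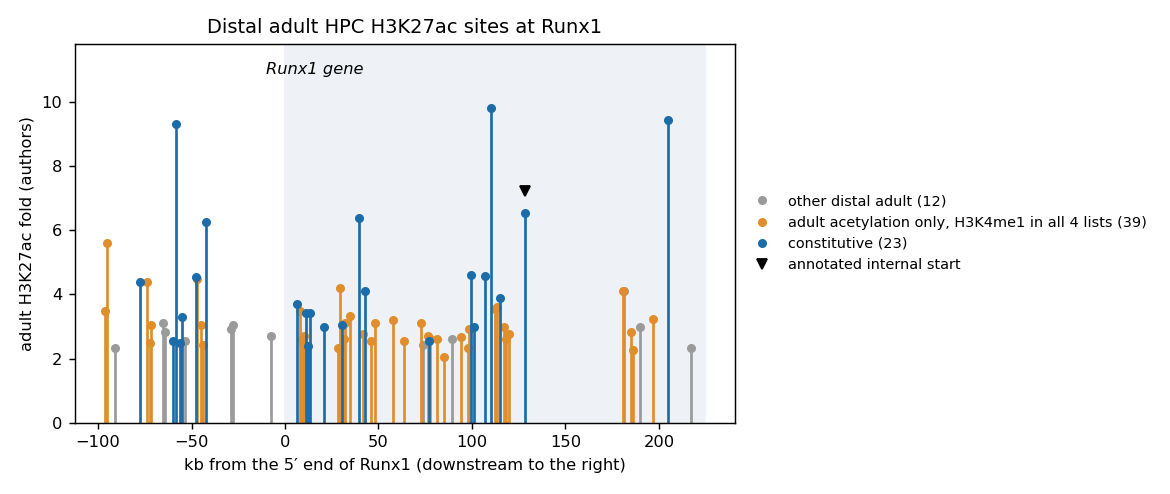
Distal adult HPC H3K27ac sites at Runx1 by distance in kb from the gene's 5′ end (x axis) and the authors' adult fold (y axis); the shaded span is the gene, colours give the class of site, and the triangle marks the internal start. The 3 highest sites, with folds of 9.29 to 9.79, are constitutive and lie upstream, near the middle and near the 3′ end.

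Among the other regulators whose strongest site is given, Kit had 14, the strongest at chr5:75693780-75697134, 38735 bp from the gene body, with adult and fetal folds of 7.73 and 7.03. Fli1, an ETS factor, had 11, the strongest at chr9:32516027-32517700 inside the gene with folds of 6.39 and 5.02. Erg, another ETS factor, had 7, the strongest at chr16:95431846-95435357, 153.0 kb into the gene, at percentiles 82.6 in adult and 70.9 in fetal acetylation and 98.5 to 99.8 in H3K4me1. Tal1, a basic helix-loop-helix factor, had 1, chr4:115062527-115064561, 7.12 kb into the gene as listed, at percentiles 86.7 and 68.2 in acetylation and 95.1 to 99.9 in H3K4me1. Both sites stood in the top 20% of all 4 H3K4me1 lists.

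Myc, a driver of cell growth, had 1 site that stood low in some H3K4me1 lists. This site, chr15:62037342-62038987, lay 47804 bp from the gene body and stood at percentiles 86.0 and 75.1 in acetylation and at 72.0, 53.0, 17.2 and 49.2 in H3K4me1, in the order given for let-7i. Gata2, a zinc-finger factor of stem cells, had 1 site, chr6:88151622-88152745, 41707 bp from the gene body, at 54.5 and 53.1 in acetylation, which held the start of Gm38856. Cebpa, a master regulator of granulocytes, had 1 of 14 distal adult sites, chr7:35151356-35151912, with an adult fold of 1.77 and an adult percentile of 0.542. At the weakest end of the list, that site met the rule with H3K4me1 percentiles of 80.3 to 99.5.

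Spi1, which encodes the ETS factor PU.1, had 8 adult peaks and no member. Of these, 2 were 4 kb or wider, 3 lay near a gene end, and 3 had no fetal peak. Lmo2, an adaptor protein of the Tal1 and Gata2 complex, had 23 adult peaks and 3 members. The strongest member, chr2:103908334-103908758, was 425 bp wide with an adult fold of 3.29, and overlapped a fetal peak of 8524 bp with a fold of 22.3. The same fetal peak overlapped an adult peak of 9390 bp with a fold of 29.9, at chr2:103898846-103908235, which the 4 kb limit excluded, and another member of 423 bp with a fold of 2.34. The 2 members at this place were therefore small peaks at the flank of a far larger adult peak that was not a member.

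At Myb, Mecom, Meis1, Prdm16 and Hmga2 the strongest members, chosen for this account after their values were seen, ranked high at both ages. The Myb site, chr10:21185831-21189364, lay 26.6 kb upstream of this regulator of progenitor growth and held the start of Gm33619 printed above. It had folds of 22.5 in adult and 18.2 in fetal acetylation, at percentiles 97.3 and 98.5, the highest adult fold at a member in the list of stem and progenitor factors. The Prdm16 site, chr4:154548769-154552075, stood at 89.1 and 93.2 in acetylation and at 99.9 in adult HSC H3K4me1. The Mecom site, chr3:30454623-30457373, stood at 89.6 and 92.7. The Meis1 site, chr11:18948245-18950899, stood at 89.4 in adult and 73.0 in fetal acetylation. The Hmga2 site, chr10:120460879-120463378, held the start of the lncRNA gene Gm51785 and stood at 80.7 and 84.2.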

How the data were processed

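Per the submitters' processing notes, Novoalign did the alignment, MACS2 called the peaks, and the build was mm10 (GRCm38); no version, filter or threshold is given in the sources used here. What the authors deposited is 1 pooled, filtered peak list per group. Each peak has the authors' ratio or fold of ChIP signal over background. The authors' −log10 p, with the −log10 q beside it, was used to rank peaks within a list only.

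The rule was applied in Python 3.11.15 with pandas 2.3.3 and numpy 2.4.6, and the interval routines were tested on simulated data. Where several peaks overlapped a site, the 1 with the highest −log10 p was used. Genes and starts were from RefSeq tables on GRCm38.p6, with 21883 protein-coding genes. Shares carry 95% Wilson intervals and differences Newcombe intervals, and no p-value was computed. The members and the gene lists were chosen with earlier results of these data known. Of 325 names in 18 lists, 2 were unmatched. The genes named are the 10 with most sites, up to 3 per list with most sites, those at the 5 strongest sites by adult −log10 p and at the 5 with the highest product of percentiles, and 10 stem and progenitor regulators. Other genes named were chosen after their values were seen. Motif windows on the acetylation summits were planned and were not analysed here, and RefSeq start windows took their place. Alternatives changed the overlap, width, distance, strength and joining of peaks.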

Additional observations from a re-analysis of the deposited data

How the results depend on the processing

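No paired analysis was possible because each group has 1 pooled list without replicate columns. For the same reason no replicate could be left out, and the 500 bp motif window was not run. The number of sites was within 1.5 times of 12658 under 9 of 12 alternatives. It was 7417 with at least 50% of the adult peak covered, 8274 with the adult summit inside a peak of each list, and 1732 from the strongest 20000 peaks of each list. The cause of each change was not tested.

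The constitutive share of distal sites was 17.4% with 50% coverage, 19.5% with the summit inside, 24.2% under 2 kb wide, 31.3% with no width limit, 32.9% with a −log10 q of at least 5 in both acetylation lists and 31.7% with that in all lists. It was 21.2% from the strongest 20000 peaks, 44.6% from the fetal peaks, 32.1% with peaks within 1 kb joined and 28.9% with sites near a start left out.

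The share holding a start, a result added after the data were seen, was 4.02% with 50% coverage, 2.97% with the summit inside, 3.90% under 2 kb wide, 6.86% with no width limit, 5.29% over 10 kb and 7.06% over 2 kb from gene ends. With the −log10 q limit it was 6.64% in both acetylation lists and 6.60% in all lists, and it was 8.72% from the strongest 20000 peaks, 4.33% from the fetal peaks and 7.59% with peaks joined.

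Clusters of 3 or more sites, 921 as reported, numbered 417 with 50% coverage, 470 with the summit inside, 544 under 2 kb wide, 32 from the strongest 20000 peaks, 1426 from the fetal peaks and 219 with peaks joined. The share inside a coding gene was 64.0% from the fetal peaks, 59.5% with peaks joined and 68.4% from the strongest 20000. Genes of the 18 lists with a site went from 120 to 48 with the strongest 20000 peaks, and the share of stem and progenitor factors was then 36.7%; it was 56.7% with 50% coverage and 60% with peaks joined. Overlap with the second K27 set was 0.0135% (fetal) with 50% coverage, and 0% (adult) with the summit inside and with the strongest 20000 peaks. The start-window ETS share and the median adult percentile stayed within their limits under all 11 and 12 alternatives run.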

Other observations

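The constitutive share of distal adult sites varied between chromosomes other than the Y, which had 1 distal adult site and no constitutive one, from 24.5% (20.2 to 29.5) on the X, with 79 of 322 sites, to 37.2% (35.1 to 39.4) on chromosome 3, with 693 of 1862. Chromosome 13 had 35.3% and chromosome 19 had 35.0%, and chromosome 8 had 24.7% (22.9 to 26.5).

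Some constitutive sites lay in wide stretches without coding genes. Of all members, 68 were more than 500 kb from every gene end. The farthest included chr18:26918956-26919987, at percentiles 77.1 in adult and 65.7 in fetal acetylation, and chr8:6481833-6482370, at 50.7 and 64.2. The second of these stood at 98.8 in fetal HSC and 96.2 in fetal HPC H3K4me1.

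Among distal adult sites, 1200 had fetal acetylation and lacked H3K4me1 in 1 or more lists. With H3K4me1 in no list there were 4865 distal adult sites, and 204 of these had fetal acetylation.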
